A study of Drosophila melanogaster with 51 samples.

Results

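Cul3, Keap1 and Cand1 are 3 Drosophila melanogaster genes of the cullin ubiquitin ligases, chosen by name out of 4698 named genes with a value in the deposited table. Each had 1 entry there, a cDNA clone annotated to that gene alone, with a value on all 51 arrays. Cul3 and Cand1 lie on chromosome arm 2L and Keap1 on 3R, and none of them overlaps another annotated gene.

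Cullins are long scaffold proteins that hold a ubiquitin-loading RING protein at one end and a substrate-binding module at the other. Attachment of the ubiquitin-like protein Nedd8 activates a cullin, and the COP9 signalosome, whose catalytic subunit is CSN5, takes Nedd8 off again. Cul3 encodes the scaffold that binds BTB-domain proteins directly. Keap1 is one of these BTB proteins: in mammals it presents the transcription factor Nrf2 for degradation, and the fly Nrf2 homologue is made by the gene cnc. Cand1 binds cullins that carry no Nedd8 and lets their substrate modules be exchanged.

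RNA came from whole larvae of 4 mutant genotypes at 60, 72 and 96 h after egg deposition, and each array set it against RNA of w118 wild-type larvae of that age in the other dye. The genotypes are a null of CSN4 (csn4null), a null of CSN5 (csn5null), and csn51 and csn53, which are CSN5 alleles by their names. The array numbers by age, from 60 to 96 h, were 3, 4 and 4 for csn4null, 5, 4 and 4 for csn5null, 4, 4 and 5 for csn51, and 5, 4 and 5 for csn53. The labels call the arrays of a group biological replicates without saying how many larvae each held, so the p-values below measure the spread between these samples. All 5 arrays of csn5null at 60 h and 3 of the 4 of csn51 at that age carry wild-type number 1, so they may share one wild-type RNA, and other comparisons of one age may share wild-type RNA too.

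Every value is a log2 ratio, mutant over wild type, so 0 means no difference. The direction is the likely one, taken from CSN4 and CSN5 in their own nulls: with the signs used here CSN4 lay between -3.22 and -1.30 on the 11 csn4null arrays. For csn51 and csn53 no deleted gene checks the direction. Over all features their arrays correlated above 0 with csn4null arrays of the same age in 12 of 12 (csn51) and 15 of 15 (csn53) pairs at 60 h, in 10 of 16 and 16 of 16 at 72 h, and in 20 of 20 and 20 of 20 at 96 h. With csn5null the median correlation was -0.11 for csn51 and -0.08 for csn53 at 60 h, where one pair of arrays reached -0.34, and 0.30 and 0.36 at 96 h. Between csn4null and csn5null, whose directions are checked, the 60 h median was -0.015, with 7 of 15 pairs above 0. Correlation with csn5null at 60 h therefore cannot decide the direction of csn51 and csn53. At 72 h 7 of 16 csn51 and 9 of 16 csn53 pairs with csn5null were above 0. At 96 h these were 19 of 20 and 20 of 20, which goes with the likely direction. With no deleted gene to check it, the direction of csn51 and csn53 stays likely but not settled. The main results on them are given also with the signs of both turned. A ratio gives no expression level, so the genes cannot be ranked by abundance, and in whole larvae fewer cells of a type and less RNA per cell cannot be told apart. The log base is taken as 2, and folds hold for that base only.

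Of the 51 arrays 3 stood apart, all of csn5null. CSN5 was at -0.32 on the array labelled csn5null 72 h replicate 3 and at -0.01 on the array labelled csn5null 96 h replicate 3, against a lowest value of -4.78 among the 13 csn5null arrays. The array labelled csn5null 60 h replicate 5 had a median correlation of -0.02 with the other arrays of its group. Results that rest on these 3 arrays are given with and without them. Outside the 3, csn5null 96 h replicate 4 had CSN5 at -1.16, against -3.84 and -3.11 on replicates 1 and 2. The array csn51 96 h replicate 1 had a median correlation of 0.56 with its group. Its weight in the fit with array weights was 0.129, below the 0.166 of csn5null 60 h replicate 5.

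The fraction of all features that passed the limma test (adjusted p below 0.05, either direction) differed widely between groups and is the background for the counts below. For csn4null at 60, 72 and 96 h it was 18.2%, 25.4% and 31.8%, and 7.89%, 18.0% and 17.7% in csn5null. In csn51 it was 47.1%, 35.0% and 55.1%, and in csn53 50.3%, 30.4% and 40.5%. A call in csn51 or csn53 is therefore shared with a large part of all features.

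Cul3, the scaffold, rose in csn51 and csn53 at 60 h and in csn53 at 72 h, and fell in csn5null at 96 h. It passed the test in 4 of 12 groups, 3 higher and 1 lower, and 27 of the 51 arrays were above 0. With the csn51 and csn53 signs turned it passed in 4 groups, all lower, and 16 arrays were above 0. In the 3 groups where it rose, 24.1%, 25.5% and 15.8% of all features were called higher, and in the group where it fell 7.99% were called lower. In csn51 at 60 h the arrays gave 0.55, 0.64, 0.52 and 0.36. In csn53 at 60 h they gave 0.56, 0.62, 0.73, 0.69 and 0.57. Every array of both groups was above 0, and their ranges overlap. The fitted values were 0.52 ± 0.10 in csn51 (SE, n = 4, limma adjusted p = 2.74e-05) and 0.64 ± 0.09 in csn53 (SE, n = 5, adjusted p = 7.77e-08), or 1.43-fold and 1.56-fold. These values exceeded those of 85.6% and 89.2% of the features in their groups.

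At 72 h the Cul3 ratios were smaller and more scattered. The csn51 arrays gave 0.14, 0.39, 0.16 and -0.02, and the csn53 arrays 0.40, 0.51, -0.06 and 0.37. One array of each genotype was thus at or just below 0. The csn53 value of 0.31 ± 0.10 (SE, n = 4) passed at a limma adjusted p of 0.0132, and the csn51 value of 0.19 ± 0.10 (SE, n = 4) did not, at 0.127. The csn53 call was lost without replicate 1, 2 or 4 (adjusted p between 0.0563 and 0.0901). It was also lost in a fit of that group's own arrays with no dye term (adjusted p = 0.132).

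At 96 h Cul3 lay on both sides of 0 in csn51 and csn53. The csn51 arrays gave -0.03, -0.08, -0.15, 0.45 and 0.02, and the csn53 arrays -0.06, -0.03, -0.31, 0.42 and 0.09. Replicate 4 is the highest array in both groups. The fitted values were 0.05 ± 0.09 and 0.03 ± 0.09 (SE, n = 5 each).

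In csn5null Cul3 was mostly below 0. The 60 h arrays gave -0.11, -0.12, 0.02, -0.21 and -0.05, the 72 h arrays 0.20, -0.02, -0.30 and -0.41. At 96 h they gave -0.48, -0.04, -0.48 and -0.48, all 4 below 0 with replicate 2 far nearer to it than the rest. That last group passed at -0.37 ± 0.10 (SE, n = 4, limma adjusted p = 0.00500), or 1.29-fold lower. Without the 2 arrays with CSN5 close to 0 its value was -0.35 (adjusted p = 0.0183). Without replicate 1 of that group the call was lost (adjusted p = 0.0659), as it was in the fit of its own arrays (0.118).

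The csn4null arrays of Cul3 gave 0.22, 0.15 and 0.26 at 60 h. The 72 h arrays gave 0.47, 0.24, -0.06 and -0.00, the 96 h arrays -0.17, 0.01, -0.35 and -0.16. All 3 arrays at 60 h were above 0, 2 of 4 were above 0 at 72 h, and no csn4null group passed the limma test, adjusted or unadjusted.

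Keap1, the adaptor, was above 0 on 50 of the 51 arrays and passed the test as higher in 9 of 12 groups, with no group lower. Turned for csn51 and csn53, these counts were 23 arrays above 0, 4 groups higher and 5 lower. The features called higher in these 9 groups made up 12.7% and 15.2% of those tested in csn4null at 72 and 96 h, 4.56% and 9.74% in csn5null at 60 and 96 h, 24.1% and 26.9% in csn51 at 60 and 96 h, and 25.5%, 15.8% and 20.8% in csn53 from 60 to 96 h. The single array below 0, at -0.22, is the one labelled csn5null 72 h replicate 3. Without the 2 csn5null arrays with CSN5 close to 0, Keap1 passed in all 12 groups. The 3 groups that did not pass were csn4null at 60 h, csn5null at 72 h and csn51 at 72 h, and these passed on leaving out any one of 2, 4 and 7 single arrays, each time including csn4null 96 h replicate 3 and csn5null 96 h replicate 3.

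In csn4null the Keap1 arrays gave 0.54, 0.42 and 0.45 at 60 h. At 72 h they gave 0.78, 0.72, 0.67 and 0.74, and at 96 h 1.09, 1.01, 1.95 and 0.84. The ranges of the 3 ages do not overlap, and the share of all features with such gaps was not counted. Of the differences between these ages only 96 h minus 60 h passed with limma, and that call rests on single arrays, as given below. The fitted values were 0.43 ± 0.17 (SE, n = 3, limma adjusted p = 0.0756), 0.73 ± 0.15 (n = 4, adjusted p = 0.000238) and 1.22 ± 0.15 (n = 4, adjusted p = 1.84e-08). The last is a 2.34-fold rise, above 98.4% of all features.

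In csn5null they gave 1.05, 0.52, 1.07, 0.73 and 0.84 at 60 h, all well above 0. At 72 h they gave 0.75, 0.59, -0.22 and 0.48, and at 96 h 1.39, 1.52, 0.24 and 1.39. In both later groups the low value is that of replicate 3, one of the arrays that stand apart. At 60 h the value was 0.87 ± 0.13 (SE, n = 5, limma adjusted p = 1.07e-05), a 1.82-fold rise above 99.0% of features in a group where 7.89% were called. At 72 h it was 0.40 ± 0.15 (n = 4) with a limma adjusted p of 0.0553, and 0.59 ± 0.14 with 0.00312 without the 2 arrays. At 96 h it was 1.13 ± 0.15 (n = 4, limma adjusted p = 5.40e-07), and 1.41 ± 0.14 without them.

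In csn51 the Keap1 arrays gave 0.69, 0.59, 0.08 and 0.42 at 60 h. At 72 h they gave 0.25, 0.12, 0.52 and 0.37, and at 96 h 1.36, 1.12, 0.78, 0.43 and 0.68. All 13 were above 0, the lowest at 0.08. At 60 h the value was 0.45 ± 0.15 (SE, n = 4, limma adjusted p = 0.0132), and the call was lost without replicate 1 (0.0727) or replicate 4 (0.0541). At 72 h it was 0.37 ± 0.15 and did not pass (limma adjusted p = 0.0531), and at 96 h it was 0.90 ± 0.13 (n = 5, adjusted p = 3.39e-07), or 1.86-fold.

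In csn53 they gave 0.30, 0.89, 0.73, 0.26 and 0.43 at 60 h. At 72 h they gave 0.39, 0.68, 0.60 and 0.30, and at 96 h 1.26, 1.22, 0.78, 0.75 and 0.74. The 14 arrays were all above 0. The fitted values of 0.54 ± 0.13 at 60 h, 0.49 ± 0.15 at 72 h and 0.97 ± 0.13 at 96 h passed, with limma adjusted p of 0.000778, 0.0105 and 1.26e-07. The 72 h call was lost without replicate 3 (adjusted p = 0.0768).

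Keap1 had the larger dye effect of the 3 genes. Its ratio was lower by 0.22 ± 0.09 (SE) when the mutant RNA carried Cy5, and the dye term of the fit removes this. The Keap1 mean was above 0 in both dye orientations in all 12 groups, the smallest being 0.13 in csn5null at 72 h with the mutant in Cy5. The dye effect was -0.10 ± 0.06 (SE) for Cul3 and -0.11 ± 0.05 (SE) for Cand1. Both orientations were above 0 in 5 and below 0 in 3 of the 12 Cul3 groups, and above in 1 and below in 5 of the 12 Cand1 groups. In the remaining groups of these genes the orientations differed in sign, but in none of the groups called.

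Cand1, the exchange factor, fell in csn51 and csn53 at 60 and 96 h and passed in no other group. These are 4 of 12 groups, all lower, and 37 of the 51 arrays were below 0. With the csn51 and csn53 signs turned the 4 calls were higher, and 16 arrays were below 0. In the fit with array weights Cand1 passed in 5 groups, 4 lower and 1 higher. Of all features 23.0% and 28.2% were called lower in csn51 at 60 and 96 h, and 24.9% and 19.7% in csn53.

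At 60 h the Cand1 arrays of csn51 gave -0.15, -0.26, -0.37 and -0.41, and those of csn53 -0.23, -0.36, -0.38, -0.54 and -0.35. All 9 were below 0. The values were -0.30 ± 0.09 (SE, n = 4, limma adjusted p = 0.00421) and -0.36 ± 0.08 (SE, n = 5, adjusted p = 0.000150), or 1.23-fold and 1.28-fold lower.

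At 96 h the csn51 arrays gave -0.23, -0.14, -0.90, -0.13 and -0.56, and the csn53 arrays -0.37, -0.32, -0.32, -0.16 and -0.43. All 10 were again below 0, and the csn51 arrays spread more widely. The values were -0.38 ± 0.08 (SE, n = 5, limma adjusted p = 5.80e-05) and -0.31 ± 0.08 (SE, n = 5, adjusted p = 0.00111). In a fit of its own arrays the csn51 value no longer passed (adjusted p = 0.0661).

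At 72 h the Cand1 arrays of csn51 gave 0.03, -0.12, -0.16 and -0.20, and those of csn53 0.04, -0.31, 0.01 and -0.00. The fitted values, -0.08 ± 0.09 and -0.06 ± 0.09 (SE, n = 4 each), were the nearest to 0 of their genotypes. Both groups held arrays on either side of 0.

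In the nulls Cand1 passed in no group of the fit reported. For csn5null the 60 h arrays gave 0.22, 0.21, 0.02, 0.03 and -0.17, the 72 h arrays -0.11, 0.04, -0.26 and 0.34, the 96 h arrays 0.01, 0.12, -0.14 and -0.08. For csn4null the 60 h arrays gave -0.15, -0.29 and -0.05, the 72 h arrays -0.02, 0.04, -0.01 and 0.18, the 96 h arrays 0.08, -0.06, -0.38 and -0.01. Only at 60 h in csn4null were all arrays of a null on one side of 0, with a fitted value of -0.18 ± 0.10 (SE, n = 3, limma adjusted p = 0.196). The other 5 fitted values of the nulls lay between -0.09 and 0.07, and no unadjusted p of the 6 was below 0.05. Without the 3 csn5null arrays that stand apart, the csn5null value at 60 h was 0.12 ± 0.08 (SE, limma adjusted p = 0.397).

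**Figure D1:**
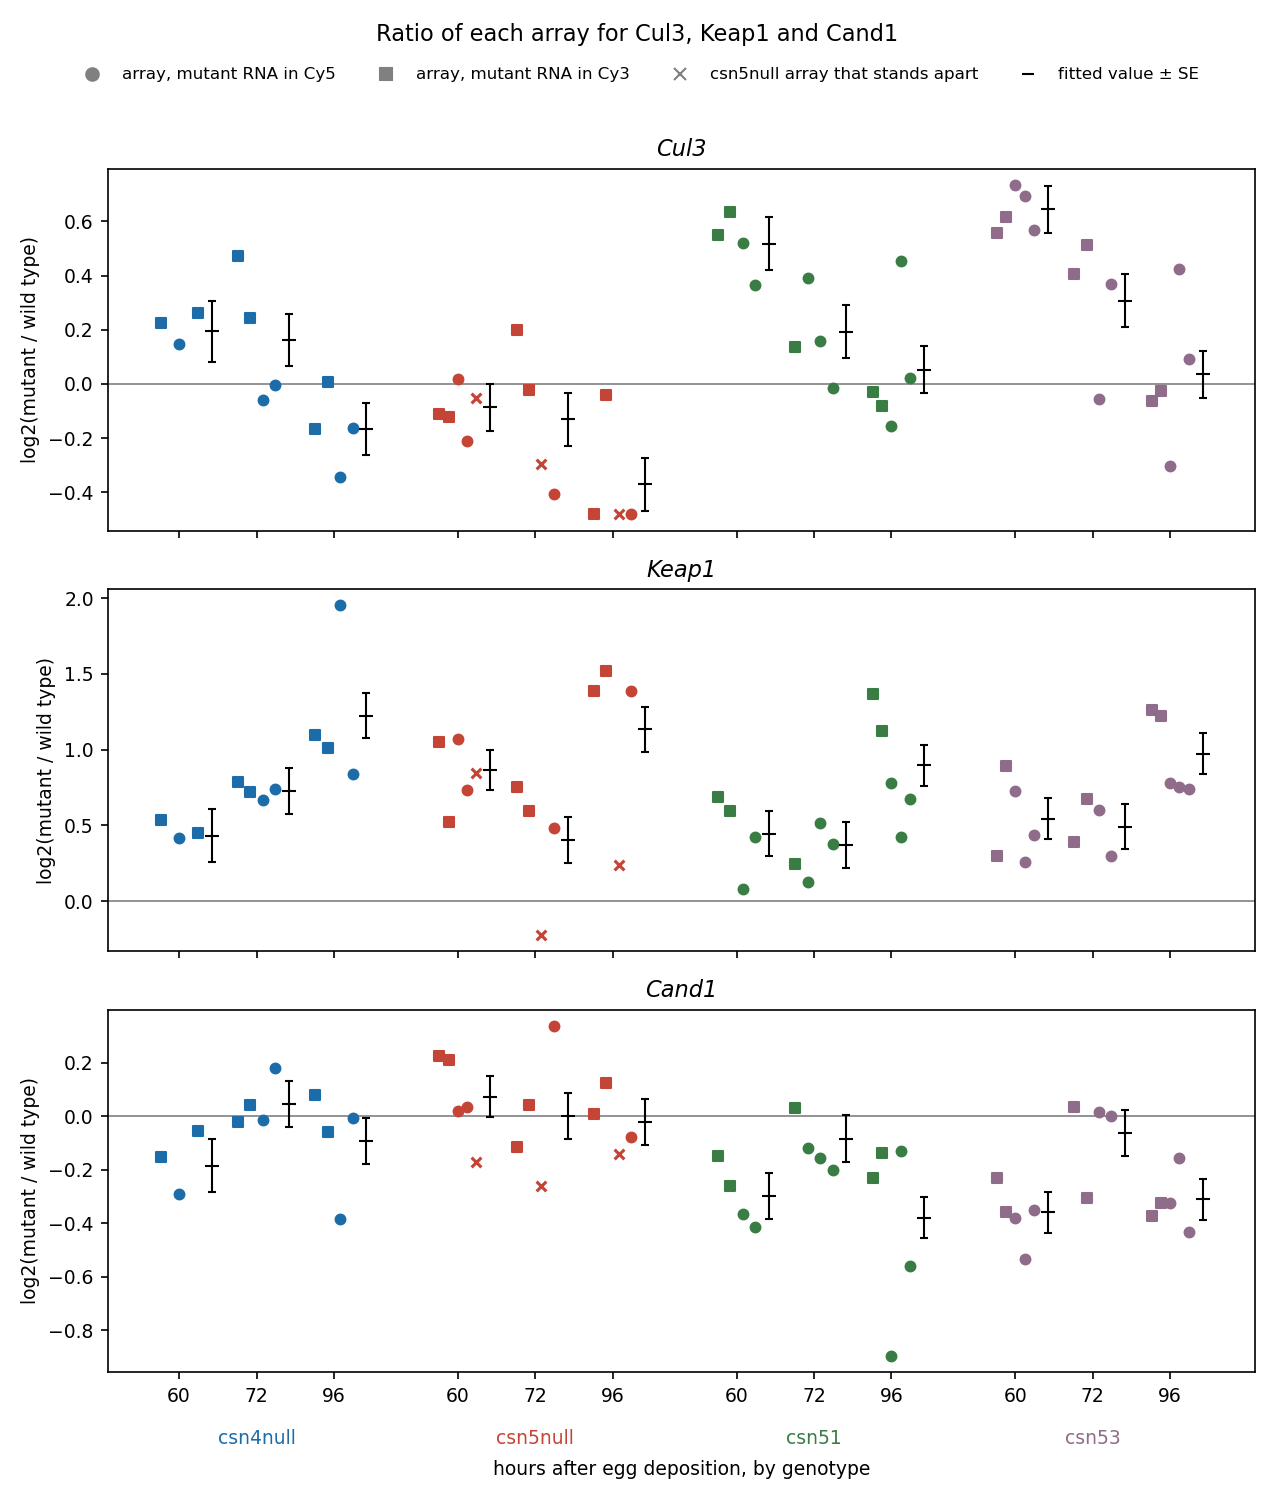
Each point is the log2 ratio of mutant over wild type on one array (vertical axis) for Cul3, Keap1 and Cand1, by genotype and hours after egg deposition (horizontal axis). Circles have the mutant RNA in Cy5, squares in Cy3, and crosses mark the 3 csn5null arrays that stand apart. Black bars are fitted values ± SE. Keap1 is above 0 on 50 of 51 arrays, Cul3 is highest in csn51 and csn53 at 60 h, and Cand1 is lowest in csn51 and csn53 at 60 and 96 h.

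Ordered from highest to lowest, Cul3 ran from csn53 and csn51 at 60 h (0.64 and 0.52) over csn53 at 72 h (0.31), csn4null at 60 h (0.19), csn51 and csn4null at 72 h (0.19 and 0.16), csn51 and csn53 at 96 h (0.05 and 0.03), csn5null at 60 and 72 h (-0.09 and -0.13) and csn4null at 96 h (-0.17) to csn5null at 96 h (-0.37). Keap1 began with the 96 h groups of csn4null, csn5null, csn53 and csn51 (1.22, 1.13, 0.97 and 0.90), followed by csn5null at 60 h (0.87) and csn4null at 72 h (0.73). Its other 6 groups lay between 0.37 and 0.54. Cand1 began with csn5null at 60 h (0.07) and ended with csn51 at 96 h (-0.38). For each gene all 11 pairs of neighbours in the order have overlapping array ranges. The largest step between neighbours was 0.21 for Cul3, 0.18 for Keap1 and 0.11 for Cand1.

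The order depends on the direction of csn51 and csn53. With their signs turned Cul3 began with csn4null at 60 h (0.19) and ended with csn51 and csn53 at 60 h (-0.52 and -0.62). For Keap1 the 6 null groups, between 0.40 and 1.22, then stood above the 6 groups of csn51 and csn53, between -0.96 and -0.34. For Cand1 csn51 at 96 h then came first (0.39) and csn4null at 60 h last (-0.17).

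**Figure D2:**
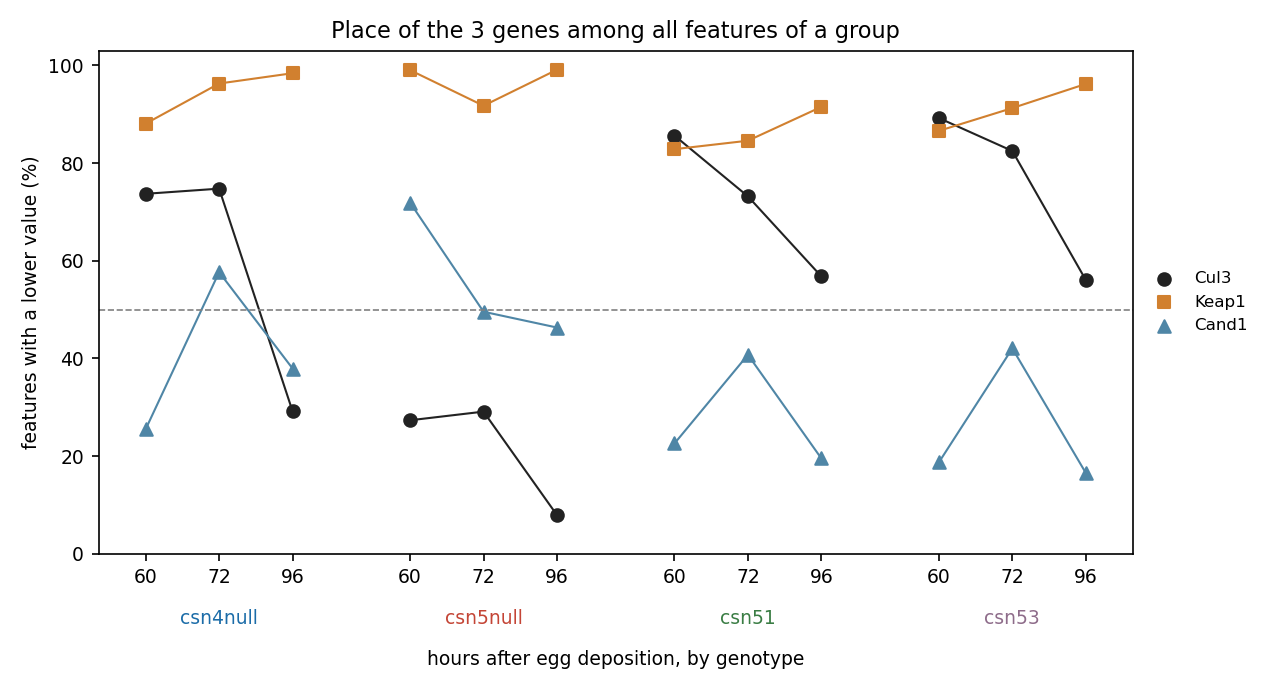
Vertical axis, percent of all features of a group whose fitted log2 ratio is lower than that of the gene; horizontal axis, hours after egg deposition by genotype, with lines joining ages and the dashed line at 50%. Keap1 lies between 82.8% and 99.1% in every group, Cul3 between 7.9% (csn5null, 96 h) and 89.2% (csn53, 60 h), and Cand1 between 16.5% (csn53, 96 h) and 71.9% (csn5null, 60 h). With turned signs the csn51 and csn53 points would be mirrored about the dashed line.

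Differences between genotypes of one age ask whether a complete loss of CSN5 and the csn51 and csn53 alleles leave a gene at the same ratio. With the likely direction Cul3 was lower in csn5null than in csn51 and csn53 averaged at all 3 ages. The differences were -0.67 at 60 h (95% confidence interval -0.89 to -0.45, limma adjusted p = 3.81e-06), -0.38 at 72 h (-0.62 to -0.14, adjusted p = 0.0124) and -0.41 at 96 h (-0.65 to -0.18, adjusted p = 0.00496). At 60 h the highest of the 5 csn5null arrays was at 0.02, and the lowest of the 9 csn51 and csn53 arrays at 0.36, so the groups do not overlap. The share of all features with such a gap was not counted. At the later ages they overlap. Of all features 43.9%, 31.7% and 30.5% were called in these comparisons. In fits of their own arrays the 72 and 96 h differences were -0.37 and -0.40 and missed the threshold (adjusted p = 0.0912 and 0.0540). Without the 2 csn5null arrays with CSN5 close to 0 they were -0.34 and -0.39 (adjusted p = 0.0487 and 0.0173), and without all 3 that stand apart the 60 h difference was -0.69. The 72 h call was lost without csn5null replicate 4 (-0.30, adjusted p = 0.0823). With the csn51 and csn53 signs turned the differences were 0.48 at 60 h (limma adjusted p = 0.000341), 0.09 at 72 h (0.589) and -0.35 at 96 h (0.0103), so the direction at 60 h rests on that of csn51 and csn53.

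Against that average Cand1 was higher in csn5null at 60 h, by 0.40 (0.21 to 0.60, limma adjusted p = 0.000749), and at 96 h, by 0.32 (0.12 to 0.53, adjusted p = 0.0132). At 60 h only replicate 5 of csn5null, which stands apart, lay within the range of the csn51 and csn53 arrays, and without the 3 arrays that stand apart the difference was 0.45. The 96 h difference was 0.35 without the 2 arrays with CSN5 close to 0 (adjusted p = 0.0149), and was lost without replicate 2 of csn5null (0.0556) and when only its own arrays were fitted (0.0780). At 72 h the difference was 0.07 (-0.14 to 0.29). Turning the csn51 and csn53 signs gave differences of -0.27 at 60 h (limma adjusted p = 0.0292) and -0.38 at 96 h (adjusted p = 0.00334).

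Keap1 did not pass in any of 9 comparisons between genotypes with limma, and 1 had an unadjusted p below 0.05: csn5null minus the mean of csn51 and csn53 at 60 h, 0.37 (0.03 to 0.71, adjusted p = 0.0696). Without the 2 csn5null arrays with CSN5 close to 0 it passed at 60 h (0.37, adjusted p = 0.0284) and at 96 h (0.48, adjusted p = 0.0227). The limma fit with array weights also gave 0 calls between genotypes for Keap1, and the fit on scaled arrays gave 2, both at 60 h: csn4null minus csn5null at -0.76, against -0.43 unscaled, and csn5null minus the mean at 0.84. If csn51 and csn53 are turned, csn5null minus the mean passed at 60, 72 and 96 h (1.32, 0.82 and 2.06).

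The alleles csn51 and csn53 differed in none of the 3 genes at any age with limma, and no unadjusted p was below 0.05. The 95% intervals of csn51 minus csn53 reached at most 0.39 in size for Cul3, 0.55 for Keap1 and 0.30 for Cand1, so differences within those bounds remain possible. Of all features 0.204%, 3.80% and 4.09% were called at 60, 72 and 96 h. Between csn4null and csn5null there was no call for any of the 3 genes in the fit reported, against 9.96%, 10.8% and 5.08% of all features. There 2 unadjusted p were below 0.05, for Cul3 at 72 h (0.29, 0.02 to 0.57) and Cand1 at 60 h (-0.26, -0.51 to -0.00). Other settings did call differences at 60 h: with array weights Cul3 passed at 0.32 (limma adjusted p = 0.0243) and Cand1 at -0.32 (adjusted p = 0.00573), and on scaled arrays Cand1 passed at -0.33 (adjusted p = 0.0316). The Keap1 intervals of csn4null minus csn5null were wide, between -0.88 and 0.75.

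Between ages of one genotype, the 3 Cul3 calls of the fit reported were lower and the 3 Keap1 calls higher at the later age. On scaled arrays 1 of 5 Keap1 calls was lower, in csn5null for 72 h minus 60 h (-0.74, limma adjusted p = 0.00616). With the signs of csn51 and csn53 turned, differences between their ages have the opposite sign. For 72 h minus 60 h, 96 h minus 72 h and 96 h minus 60 h, the share of all features called was 12.7%, 26.3% and 12.9% in csn4null, 2.86%, 8.21% and 7.43% in csn5null, 19.3%, 25.6% and 38.4% in csn51, and 35.0%, 24.5% and 31.9% in csn53. In csn53 Cul3 was lower by 0.34 at 72 h than at 60 h (limma adjusted p = 0.0400) and lower by 0.61 at 96 h than at 60 h (adjusted p = 0.000140). The 72 h minus 60 h call was lost without any one of 4 single arrays of these groups (adjusted p up to 0.233). In csn51 it was lower by 0.47 at 96 h than at 60 h (limma adjusted p = 0.00409). The 96 h minus 60 h difference of Cul3 was -0.36 in csn4null and -0.28 in csn5null, which did not pass (limma adjusted p = 0.106 and 0.195).

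Keap1 was higher by 0.79 at 96 h than at 60 h in csn4null (0.33 to 1.26, limma adjusted p = 0.0176). Without the csn4null 96 h array at 1.95, replicate 3, that difference was 0.51 (adjusted p = 0.133), and it also missed the threshold without csn4null 60 h replicate 1 or 3 (0.0542 and 0.0632). In csn5null Keap1 was higher by 0.73 at 96 h than at 72 h (limma adjusted p = 0.0246), and by 0.82 without the 2 arrays (adjusted p = 0.00548). Leaving out any one of 4 single arrays of these groups ended the call (adjusted p up to 0.125), as did a fit of their own arrays (0.342). It was higher by 0.53 at 96 h than at 72 h in csn51 (limma adjusted p = 0.0493), a call lost on leaving out any one of 38 of the 51 arrays. In csn53 the same difference was 0.48 and did not pass (limma adjusted p = 0.0766). Without the 2 csn5null arrays Keap1 passed in 8 comparisons of ages in place of 3.

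Cand1 had 1 call between ages, in csn53, where it was higher by 0.30 at 72 h than at 60 h (0.06 to 0.53, limma adjusted p = 0.0431). Leaving out any of 6 single arrays of these 2 groups ended the call, with adjusted p up to 0.150, and on scaled arrays it was 0.24 (adjusted p = 0.0814). In csn51 the Cand1 difference of 96 h minus 72 h was -0.30, which missed the threshold (limma adjusted p = 0.0540). That difference passed with array weights (-0.39, adjusted p = 0.00192), without the 2 csn5null arrays (-0.29, adjusted p = 0.0472) and on leaving out any one of 7 single arrays.

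**Figure D3:**
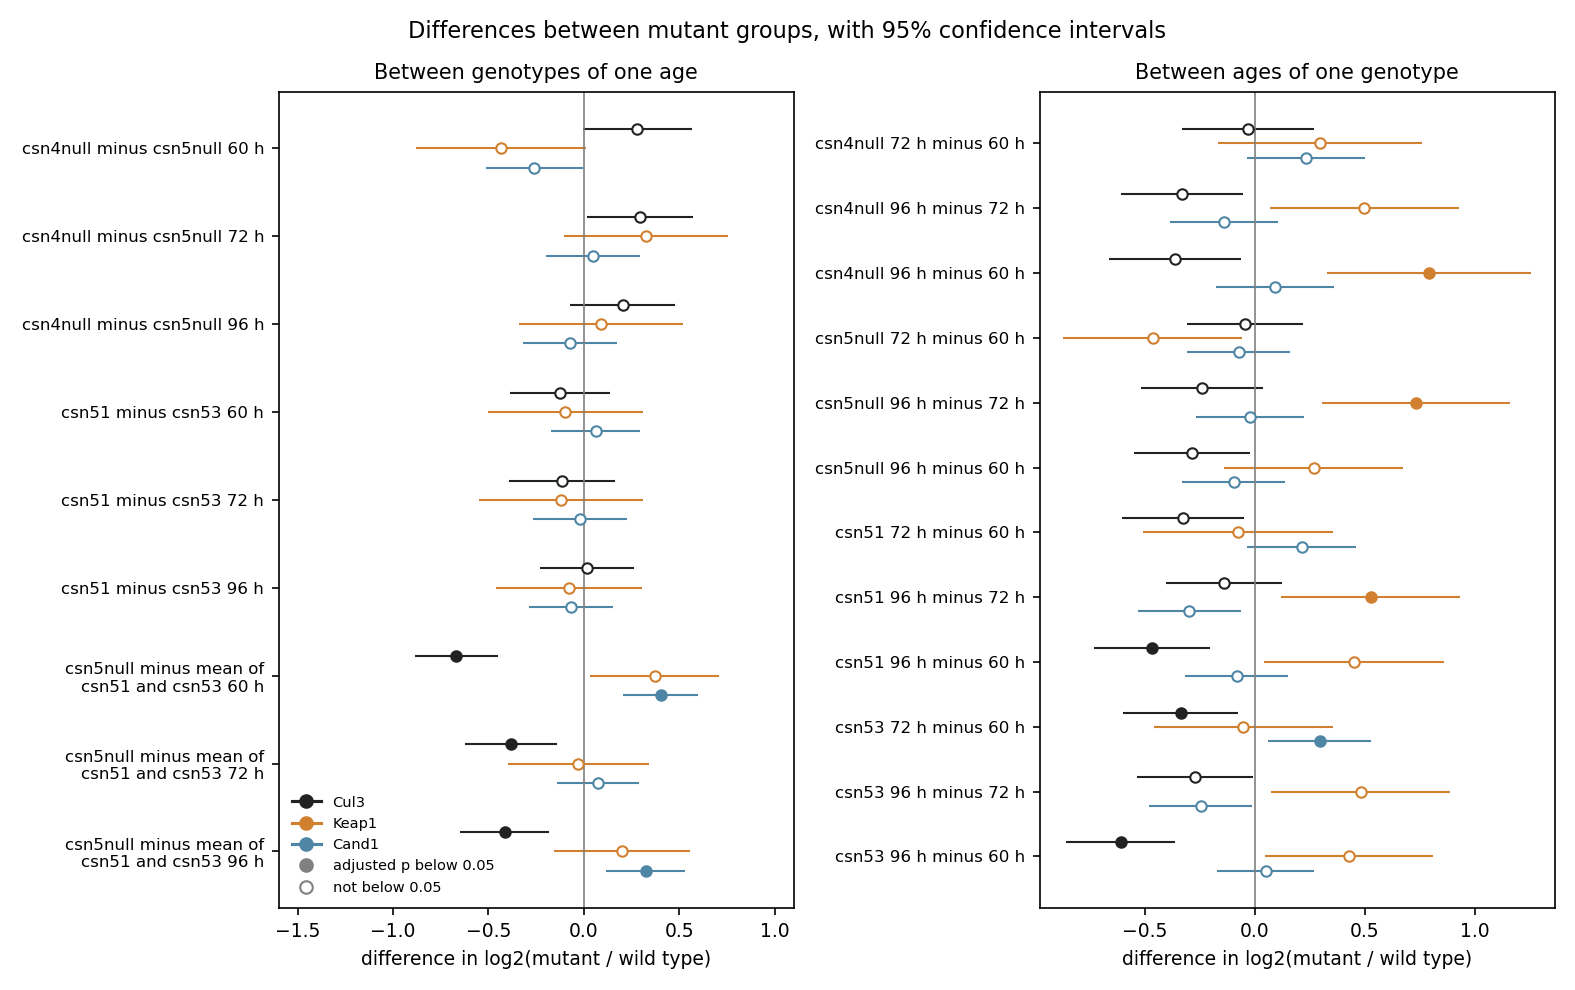
Horizontal axes, difference between 2 mutant groups in log2 ratio of mutant over wild type, with 95% confidence intervals, for the comparisons named on the vertical axes. Filled points passed the limma test and open points did not. With the likely direction Cul3 is left of 0 in csn5null minus the mean of csn51 and csn53 at all 3 ages (-0.67, -0.38 and -0.41), and the csn51 minus csn53 intervals all include 0.

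Genes of the moulting cycle and of single tissues moved in some of the same groups. Of 7 measured genes of an ecdysone and moult list, 5 rose in csn51 and 3 in csn53 at 60 h, where Cul3 rose and Cand1 fell and where 24.1% and 25.5% of all features were called higher. Among them were ftz-f1, an orphan nuclear receptor of the moulting cycle (2.00 and 2.20), and EcR, the ecdysone receptor (0.91 and 0.93). In csn5null at 60 h 0 of 7 passed with limma, 2 had an unadjusted p below 0.05, and ftz-f1 was at -0.15. There 7.89% of all features were called. At 96 h, where Keap1 was highest, the list ran both ways: 0, 0, 4 and 3 genes rose and 2 fell in each of csn4null, csn5null, csn51 and csn53. Those that fell were EcR, to between -0.99 and -0.75, and br, an ecdysone-induced transcription factor. ImpL1 (5.81 and 5.53), Hr3 (1.75 and 1.55) and ftz-f1 (1.35 and 1.42) rose in csn51 and csn53 at that age. Of all features 15.2%, 9.74%, 26.9% and 20.8% were called higher at 96 h in csn4null, csn5null, csn51 and csn53. The shares called lower were 16.6%, 7.99%, 28.2% and 19.7%. Fbp2, the 1 measured fat body gene of 6 listed, fell at 96 h to -7.61 in csn4null, -5.49 in csn5null, -8.10 in csn51 and -8.50 in csn53.

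Other tissue lists moved at 60 and 96 h too. At 60 h, beside the Cul3 and Cand1 calls, 2 of 3 haemocyte genes (PPO1, PPO2 and Pxn) were higher in csn51 and in csn53, with medians of 1.04 and 0.73, and 0 and 1 of 3 in csn4null and csn5null. Of 3 midgut genes 1 and 2 were higher in csn51 and csn53 at 60 h, and of 2 muscle genes 1 was higher in csn4null, csn51 and csn53. The share of all features called higher at 60 h was 9.94% in csn4null, 4.56% in csn5null, 24.1% in csn51 and 25.5% in csn53. At 96 h the haemocyte and midgut lists each had 2 or 3 of 3 genes lower in each genotype, with medians between -2.91 and -0.41 and between -2.08 and -0.51. In the same groups, from csn4null to csn53, 16.6%, 7.99%, 28.2% and 19.7% of all features were called lower. Both muscle genes were lower in csn51 and csn53 at 96 h, and 1 was higher in csn4null (0.34). Of 3 neuronal genes 1, 0, 1 and 2 were higher in csn4null, csn5null, csn51 and csn53 at that age. In these groups 15.2%, 9.74%, 26.9% and 20.8% of all features were called higher. No gene of the larval cuticle list was measured. Their part in the values of Cul3, Keap1 and Cand1 was not tested.

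Averaged over the 12 groups, 16.0% of all features were called higher, 15.5% lower and 31.4% in either direction, which is the background for the pooled counts of the lists that follow. Turning the signs of csn51 and csn53 would exchange higher and lower in those groups, and the pooled counts are given that way too.

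The other measured cullins gave calls in both directions. Of 8 genes on the list of cullins and RING proteins, Cul1, Cul2, Cul4 and Cul6 were measured, and their 48 gene-by-group tests gave 16 higher and 4 lower calls (33.3% and 8.33%), or 11 and 9 with turned signs. Cul6 rose in csn5null at 60 and 96 h (0.53 and 0.45), in csn51 at 60 and 96 h (0.48 and 0.35) and in csn53 at all 3 ages (0.70, 0.92 and 0.65), but lay between -0.06 and -0.04 in csn4null. Cul4, a scaffold of ligases in DNA replication and repair, fell at 60 h in csn51 (-0.29) and csn53 (-0.21), where Cul3 rose. It rose at 96 h in csn4null (0.26), csn5null (0.25) and csn53 (0.19). Cul2 rose at 96 h in csn4null (0.36) and csn5null (0.26), and Cul1, the scaffold of SCF ligases, fell at 72 h and rose at 96 h in csn51 and csn53 (-0.24, -0.25, 0.22 and 0.23). The median of the 4 lay between -0.03 and 0.25, where the median of all features lay between -0.02 and 0.01.

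The signalosome list, 5 measured genes of 9 with CSN4 and CSN5 among them, gave 2 higher and 13 lower calls in 60 tests. Calls made up 25% of the tests, a smaller share than over all features, and would be 7 higher and 8 lower with turned signs. CSN1b and alien (the fly CSN2) fell at 60 h in csn51 (-0.43 and -0.61) and csn53 (-0.52 and -0.51), where 23.0% and 24.9% of all features were called lower. At 72 h 1 gene of the list was higher in csn4null and 1 in csn53. CSN5 itself was at -0.47 ± 0.33 (SE, n = 4) in csn51 and -0.53 ± 0.30 (SE, n = 5) in csn53 at 60 h, with every array of both groups below 0. All 3 csn4null arrays at 60 h were below 0 too (-0.29 ± 0.38, SE), so this is not particular to the CSN5 alleles. In csn53 at 72 h all 4 arrays were above 0 (0.25 ± 0.33, SE). CSN5 passed in no csn51, csn53 or csn4null group. The fit takes the spread of CSN5 from all 51 arrays, which include the csn5null arrays with CSN5 close to 0. The missing calls therefore do not show an unchanged CSN5. Uba3, a subunit of the enzyme that activates Nedd8 and the 1 measured gene of 8 in its list, fell at 60 h in csn4null (-0.30), csn51 (-0.24) and csn53 (-0.30). In csn5null Uba3 was above 0 at 60, 72 and 96 h (0.22, 0.17 and 0.10) and did not pass, though its unadjusted limma p at 60 h was below 0.05.

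Substrate modules of the cullins other than Cul3 gave 32 lower and 7 higher calls in 120 tests of 10 measured genes of 19 listed. These are 26.7% and 5.83% of the tests, and 32.5% in either direction is close to the share over all features. With turned signs the counts would be 15 lower and 24 higher. SkpA, which links F-box proteins to Cul1, fell at 96 h in csn4null (-0.23), csn5null (-0.29), csn51 (-0.54) and csn53 (-0.46). The F-box gene Fsn fell at 96 h in all 4 as well, between -0.47 and -0.23. The F-box gene Skp2 fell at 60 h in csn51 (-0.70) and csn53 (-0.73) and rose in csn5null (0.31). In contrast mahj, whose product works with Cul4, rose at 96 h in csn4null (0.72), csn51 (1.21) and csn53 (0.66).

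The BTB partners of Cul3 other than Keap1 gave 8 higher and 7 lower calls in 84 tests of 7 measured genes of 10 listed, with medians between -0.13 and 0.07. Calls made up 17.9% of these tests, a smaller share than over all features, and would be 6 higher and 9 lower with turned signs. In csn5null none of the 7 passed at any age with limma, and 1, 1 and 0 had an unadjusted p below 0.05 at 60, 72 and 96 h. Only 7.89%, 18.0% and 17.7% of all features were called in these csn5null groups, so few calls would be found among 7 genes at the background share. At 60 h kel, which encodes the ring canal protein Kelch, rose in csn51 (1.13) and csn53 (1.12), and rdx, whose product brings the transcription factor Ci to Cul3, rose too (0.62 and 0.68). At that age inc, a Cul3 adaptor needed for sleep, fell in both (-0.17 and -0.24). At 96 h KLHL18 fell in csn4null (-1.04) and in csn51.

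The Keap1 pathway list had 7 of 17 genes measured, with 37 higher and 12 lower calls in 84 tests and medians between -0.02 and 0.50. Calls made up 58.3% of the tests, and would be 25 higher and 24 lower with turned signs. The transcription factor gene cnc rose at 96 h in csn4null (0.42), csn5null (0.27) and csn51 (0.30), in csn51 also at 60 and 72 h (0.38 and 0.34), and in csn53 at 60 h (0.33). Trxr1, thioredoxin reductase, rose at 96 h in all 4 genotypes, by 0.57 in csn4null, 0.60 in csn5null, 0.43 in csn51 and 0.50 in csn53. Gclm, the modifier subunit of the first enzyme of glutathione synthesis, did not follow them: it rose in csn5null at 60 h (0.66) and fell in csn51 at all 3 ages (-0.37, -0.51 and -0.95) and in csn4null and csn53 at 72 and 96 h (between -0.55 and -0.41).

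Detoxification genes of that list ran in both directions. GstE1, a glutathione transferase, fell in csn4null at all 3 ages (-1.30, -1.50 and -1.75) and rose in csn51 (2.65, 1.66 and 2.12) and csn53 (2.73, 1.51 and 2.31). The P450 gene Cyp6a8 rose in csn4null (4.04, 5.57 and 4.30), csn5null (3.43, 2.72 and 1.67) and csn53 (2.98, 3.18 and 2.13), and fell in csn51 at 96 h (-1.17). Cyp6w1, another P450 gene, rose in csn4null (4.49, 4.62 and 3.56) and csn53 (2.69, 1.12 and 0.83), in csn5null at 60 and 72 h (1.06 and 1.04) and in csn51 at 60 h (0.97), and fell in csn51 at 96 h (-0.76). Men, malic enzyme, passed in no group.

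**Figure D4:**
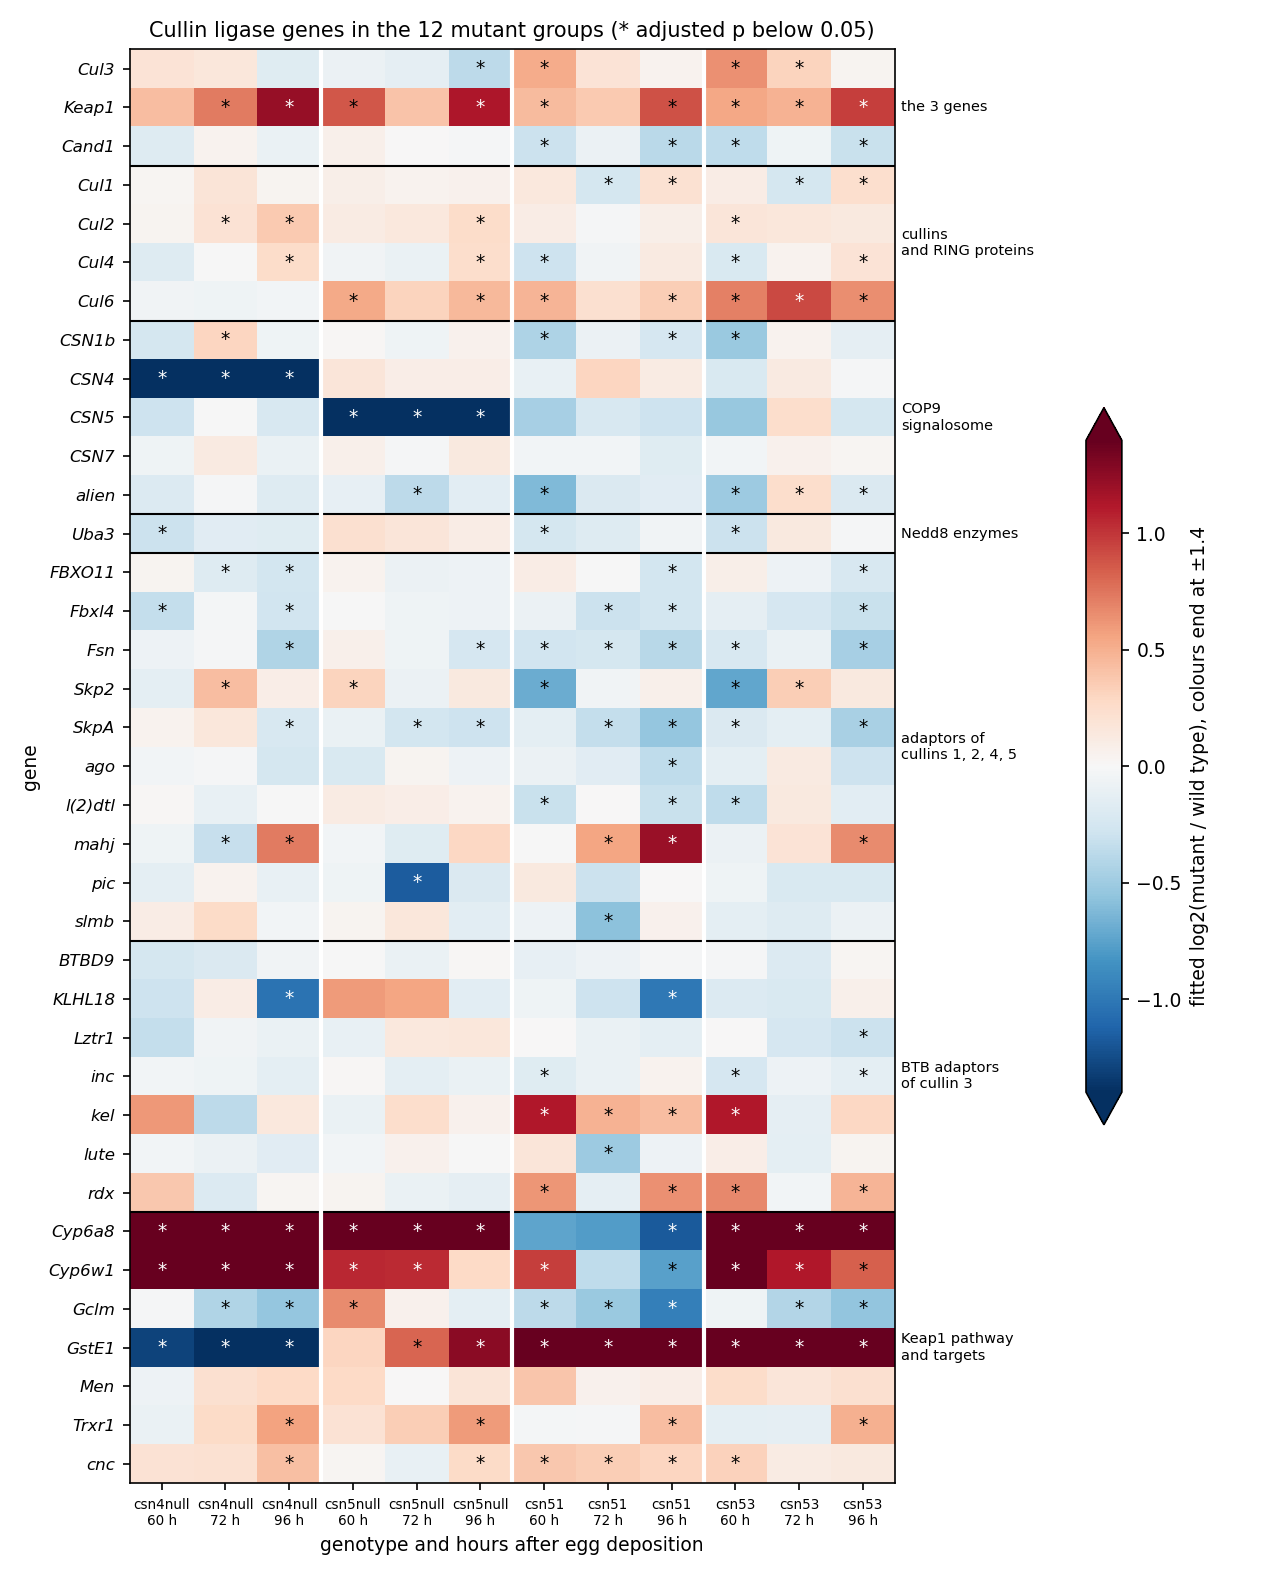
Rows are Cul3, Keap1, Cand1 and the measured genes of the pathway lists, columns the 12 groups of genotype and hours after egg deposition. Colour is the fitted log2 ratio of mutant over wild type, colours ending at ±1.4, and stars mark a limma adjusted p below 0.05. Keap1 is starred in 9 columns, Cul3 in 4 and Cand1 in 4, while GstE1 is low in csn4null and high in csn51 and csn53.

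Over the 12 fitted group values, each gene was set against 4393 other named genes, and Pearson's r describes the likeness. The 12 values share arrays, dyes and possibly wild-type RNA, and the genes named are the highest of that number. Closest to Cul3 was emc (r = 0.98), whose product binds basic helix-loop-helix factors and blocks their DNA binding. It ran from -0.31 in csn5null at 96 h to 0.88 in csn53 at 60 h. The next were Ent1, a nucleoside transporter gene (0.90), CG9682 (0.89), mura (0.89) and Ank (0.88). Closest to Cand1 were brm (0.98) and mor (0.98), which encode subunits of the Brahma chromatin remodelling complex, then CG6664, Chro and CG1910 (all 0.96). brm ran from -0.63 in csn51 at 96 h to 0.17 in csn4null at 72 h, a wider range than that of Cand1.

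Closest to Keap1 was CG31248 (r = 0.91), but with another level: it lay between -1.62 and 0.36 and was thus mostly below 0 where Keap1 was above. Chpf (0.87), CG5171 (0.86), Egm (0.86) and the heavy metal transporter gene Hmt-1 (0.86) followed. Among the 3 genes themselves r was -0.65 for Cul3 and Keap1, -0.53 for Cul3 and Cand1 and 0.06 for Keap1 and Cand1. After turning csn51 and csn53 these were 0.24, -0.45 and -0.79. The r of Cul3 with emc was then 0.94 and that of Cand1 with brm 0.96, but that of Keap1 with CG31248 was -0.54.

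**Figure D5:**
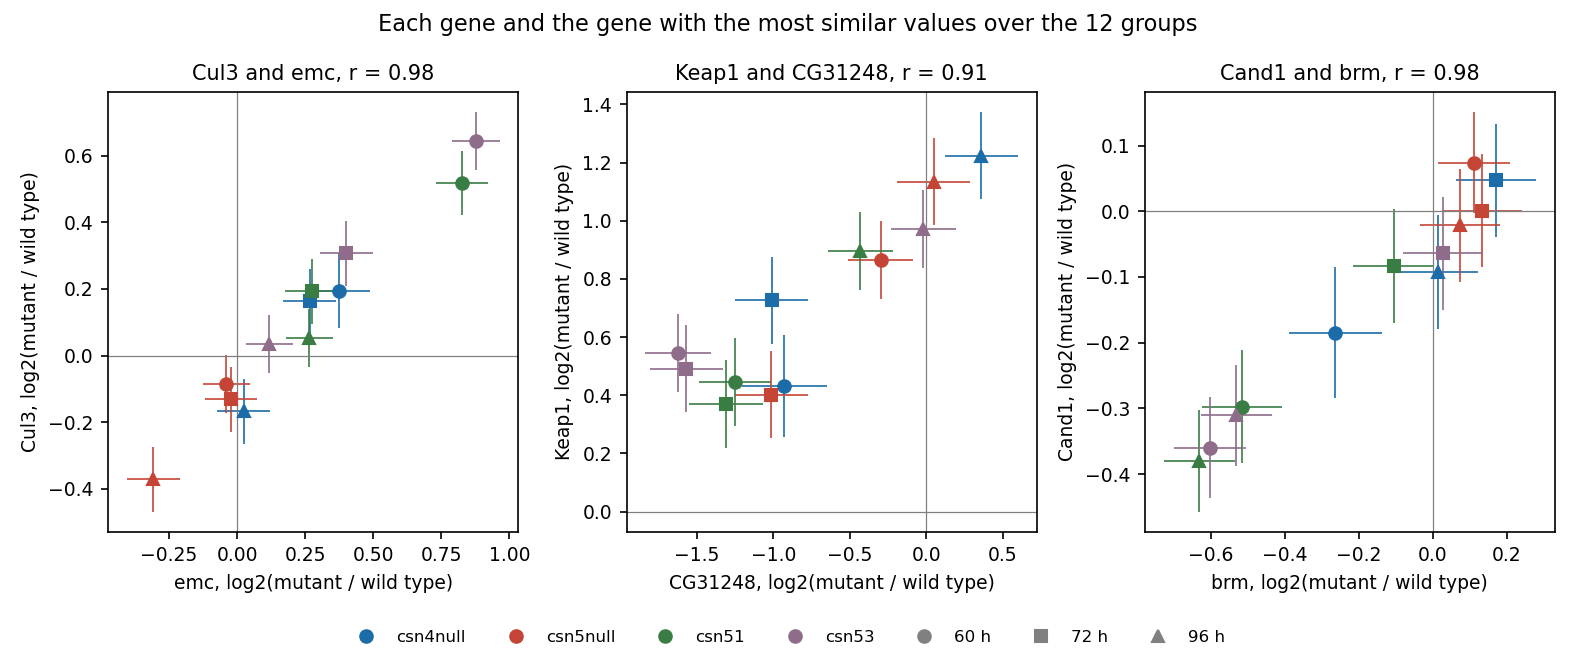
Fitted log2 ratio of mutant over wild type of Cul3, Keap1 and Cand1 (vertical axes) against that of the gene with the highest Pearson's r (horizontal axes), 1 point for each of the 12 groups with bars of ±1 SE. Colour is genotype and shape is age. Cul3 and emc (r = 0.98) are both highest in csn53 and csn51 at 60 h, CG31248 lies mostly below 0 while Keap1 lies above it (r = 0.91), and Cand1 and brm (r = 0.98) are both lowest in csn51 and csn53 at 60 and 96 h.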

How the data were processed

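Total RNA of whole mutant and wild-type larvae, extracted with TRIZOL, was labelled with Cy3 and Cy5 through amino-allyl nucleotides and hybridised to 2-colour arrays, per the labels' protocols. The authors deposited 1 table of processed values, read here as log2 ratios with 6621 entries. Its log base, direction, background correction and normalization are not given in the sources used here. A base of 10 would make the largest absolute value, 10.4, an implausible ratio. A natural logarithm is not excluded and would raise every log2 value by one factor. Array medians lay between -0.02 and 0.01. Within groups 53 pairs of arrays had opposite dyes, of which 47 correlated above 0.4, so that the ratios do not turn with the dye. The other 6 pairs were in csn5null. The deposited CSN4 and CSN5 values were above 0 in their own nulls (means 2.34 and 3.23), so every sign was turned, and the fall of these genes in their nulls is no independent result.

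Each array had values for 5780 to 6561 entries, and the table holds no signal over background. The 32 control entries were left out, 28 had no value, and 5072 had 1 gene symbol, 176 several and 1373 none. Symbols come from the platform annotation, and 4993 were matched to the RefSeq gene table (Release 6 plus ISO1 MT), consulted for names, chromosome arms and overlap only. Entries of one gene were averaged, which left 5871 features. A feature was tested where each group had 2 or more arrays with a value.

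The test was limma 3.58.1 (R 4.3.3) over all 51 arrays, with 12 group coefficients and 1 dye coefficient (lmFit, eBayes, prior df 3.40). Within a comparison p-values were adjusted by Benjamini and Hochberg's method over all its features and called below 0.05. There were 33 comparisons, 12 with wild type, 9 between genotypes of one age and 12 between ages of one genotype. The fit was tested on simulated data. Alternatives were no dye term, own arrays, median centring, scaling, only features measured on every array, entries of one gene kept separate, array weights (statmod 1.5.0), robust eBayes, random blocks and each array left out. Fits without 2 or 3 csn5null arrays, and with the signs of csn51 and csn53 turned, were added after seeing the data. Figures used Python 3.11.15 and matplotlib 3.10.9.

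Members, lists and tests were chosen with earlier results of these data known. Genes named are the 3 members, CSN4 and CSN5, the 5 most alike by Pearson's r over the 12 groups, and up to 2 list members each way per group by adjusted p. In the Nedd8 list 1 gene was entered under a wrong identifier, and Den1 was looked up by its symbol.

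Same-numbered arrays of an age were checked for pairing by correlating residuals: over 71 pairs r lay between -0.570 and 0.633, and 0 of 18 pairs of genotypes had every r above 0.1, so the numbers were not taken to pair the samples.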

Additional observations from a re-analysis of the deposited data

Results flagged for a closer look

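In 4 groups of 4 or 5 arrays the highest or lowest array lay farther from its neighbour than Dixon's 95% limit allows. Chance does this in about 1 in 20 groups. Each gene has 12 groups, all tested but csn4null at 60 h, which has 3 arrays. Cul3 was at 0.45 on csn51 96 h replicate 4, with the other 4 arrays at 0.02 or below, and at -0.041 on csn5null 96 h replicate 2, with the other 3 at -0.48. Keap1 was at 0.24 on the array labelled csn5null 96 h replicate 3, with the others at 1.39 or above, and this array also has CSN5 near 0. Cand1 was at -0.31 on csn53 72 h replicate 2, with the others between -0.00 and 0.04.

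Effects that differed between groups by limma's test of the difference itself were 12. Between csn5null and the mean of csn51 and csn53 these were Cul3 at 60, 72 and 96 h (-0.67, -0.38 and -0.41) and Cand1 at 60 and 96 h (0.40 and 0.32). Between ages they were Cul3 in csn51, 96 h minus 60 h (-0.47), and in csn53, 72 h minus 60 h (-0.34) and 96 h minus 60 h (-0.61). For Keap1 they were csn4null 96 h minus 60 h (0.79), csn5null 96 h minus 72 h (0.73) and csn51 96 h minus 72 h (0.53), and for Cand1 csn53 72 h minus 60 h (0.30). The signs for csn51 and csn53 hold for the likely direction of their ratios.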

How the results depend on the processing

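No called value of Cul3, Keap1 or Cand1 changed sign under any alternative except turning the csn51 and csn53 signs, which reverses those groups by construction. The reported calls were 4 groups for Cul3, 9 for Keap1 and 4 for Cand1 against wild type, 3, 0 and 2 differences between genotypes, and 3, 3 and 1 between ages. With age and replicate number as a random block (replicate block), these counts stayed at 4, 9 and 4, at 3, 0 and 2, and at 3, 3 and 1. Fitted on own arrays with no dye term, Cul3 kept 2 calls against wild type, and between genotypes Cul3 had 1, Keap1 1 and Cand1 1. With arrays scaled to one median absolute value Keap1 had 2 calls between genotypes and 5 between ages, 1 of them lower, and Cand1 had 3 between genotypes and 0 between ages. Array weights gave 6, 6 and 4 calls between ages for Cul3, Keap1 and Cand1, and 4, 0 and 3 between genotypes. Against wild type they gave 5, 11 and 5 calls, and 1 of the 5 Cand1 calls was higher. Keap1 had 12 calls against wild type on scaled arrays, 11 with only features measured on every array and 10 with median centring. Without 2 or without 3 csn5null arrays, Keap1 had 2 calls between genotypes and 8 between ages, and Cand1 2 between ages. Leaving out one array at a time, the calls against wild type were 3 to 4 for Cul3, 8 to 12 for Keap1 and 4 to 4 for Cand1. Those between genotypes were 2 to 3, 0 to 2 and 1 to 2, and those between ages 2 to 5, 1 to 7 and 0 to 3. Why these counts move was not tested, beyond the smaller number of arrays in the own-array and left-out fits. The number of arrays, 3 to 5 a group, and the missing signal over background limit the precision.

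With the csn51 and csn53 signs turned, the fitted values at 60 h became -0.52 and -0.62 for Cul3, -0.45 and -0.53 for Keap1 and 0.30 and 0.37 for Cand1 in csn51 and csn53. In csn53 at 72 h they were -0.31 for Cul3 and -0.49 for Keap1. At 96 h they were -0.88 and -0.96 for Keap1 and 0.39 and 0.32 for Cand1. Differences of csn5null from the mean of csn51 and csn53 turned to 0.48 and 0.093 for Cul3 at 60 and 72 h, 0.82 for Keap1 at 72 h, and -0.27 and -0.38 for Cand1 at 60 and 96 h, and Keap1 had 3 calls between genotypes. Between ages, csn51 gave 0.38 (72 h minus 60 h) and 0.49 (96 h minus 60 h) for Cul3 and -0.55 (96 h minus 72 h) for Keap1, and csn53 gave 0.32 (72 h minus 60 h) and 0.61 (96 h minus 60 h) for Cul3 and -0.31 (72 h minus 60 h) for Cand1.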
